A study of Mus musculus with 103 samples.

Results

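Daily rhythms of liver transcripts were examined in young mice on a calorie-restricted diet, the 32 arrays whose titles name that group; the other groups of the series hold 71. The C57BL6/J mice, of both sexes per the labels (18 female, 14 male), had been on the diet for 25 weeks under 12 h of light and 12 h of dark. Livers were taken at zeitgeber time (ZT, hours after lights on) 0, 4, 8, 12, 16 and 20, with 5, 6, 5, 6, 5 and 5 arrays. The labelled ages were 47 to 56 weeks, apart from replicate 5 at ZT16, which is titled young and labelled 88 weeks. Values were set beside those of 25 arrays from young mice on the normal diet (13 female, 12 male, labelled 23 to 57 weeks). They were also set beside those of 24 arrays from old mice on the restricted diet (12 female, 12 male, 83 to 97 weeks). The fit of all arrays also held 22 arrays from old mice on the normal diet (12 female, 10 male, 84 to 93 weeks). The labels do not give the degree of restriction or the hour of feeding, and do not say that replicates were separate animals, so the p-values speak of the spread among these arrays. Each array gave log2 intensities, with array medians between 5.06 and 5.16 and correlations of 0.968 to 0.996 between pairs of arrays. The number of arrays limits the precision.

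The liver clock is a feedback loop. The activators Arntl (BMAL1), Clock and Npas2 bind E-boxes and switch on the Per and Cry genes, whose proteins then repress them. A second loop runs through the nuclear receptors of the REV-ERB and ROR families, which act on ROR elements, and another through Dbp, Tef and Hlf against Nfil3 at D-boxes. In liver these loops, together with the times of feeding and fasting and hormones such as glucocorticoids, give daily programmes of glucose, lipid and bile acid metabolism and of protein folding.

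For 4 clock genes, chosen because a motif was found there, the 250 bases before the RefSeq start (GRCm38.p6) are shown 5′ to 3′, to show the elements through which the loops are known to act. Capitals mark the E-box CACGTG, the D-box TTATGTAA or TTACGTAA, and the ROR element TAGGTCA, each searched on both strands.
Ciart, chr3:95882229-95882478, minus strand: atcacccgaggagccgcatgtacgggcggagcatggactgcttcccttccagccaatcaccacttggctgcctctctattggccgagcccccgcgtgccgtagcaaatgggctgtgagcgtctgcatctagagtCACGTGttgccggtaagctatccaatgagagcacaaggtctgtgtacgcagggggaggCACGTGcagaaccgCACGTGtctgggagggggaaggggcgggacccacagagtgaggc
Cry1, chr10:85185055-85185304, minus strand: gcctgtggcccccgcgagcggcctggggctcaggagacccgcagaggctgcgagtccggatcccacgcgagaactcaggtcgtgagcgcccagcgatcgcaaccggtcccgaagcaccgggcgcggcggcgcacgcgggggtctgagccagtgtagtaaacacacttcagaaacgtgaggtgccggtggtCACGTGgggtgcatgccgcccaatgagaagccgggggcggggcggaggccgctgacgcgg
Per3, chr4:151044666-151044915, minus strand: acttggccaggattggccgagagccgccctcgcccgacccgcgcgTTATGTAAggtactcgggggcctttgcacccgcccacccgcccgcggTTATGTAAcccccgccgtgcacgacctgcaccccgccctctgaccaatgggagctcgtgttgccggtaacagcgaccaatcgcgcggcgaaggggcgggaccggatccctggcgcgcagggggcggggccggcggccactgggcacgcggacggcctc
Nfil3, chr13:52981040-52981289, minus strand: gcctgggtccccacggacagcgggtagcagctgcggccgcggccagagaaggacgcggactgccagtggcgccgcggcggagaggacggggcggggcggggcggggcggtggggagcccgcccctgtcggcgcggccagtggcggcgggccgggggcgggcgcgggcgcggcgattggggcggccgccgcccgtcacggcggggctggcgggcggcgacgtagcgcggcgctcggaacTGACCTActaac
Ciart, a repressor of the activator complex, held 3 E-boxes, Cry1 held 1 and Per3 held 2 D-boxes. The ROR element of Nfil3 lay on the opposite strand, 12 bases before the start. No such motif was found in the promoters searched for Arntl, Clock, Npas2 and Nr1d2. Among the 9474 tested genes with a promoter in the RefSeq table, 9.68% held an E-box, 0.781% a D-box and 2.28% a ROR element in this window. Of the 393 genes with a promoter that changed at least 2-fold, 12.5% held an E-box, 2.29% a D-box and 4.07% a ROR element. By 4 h window of peak time the E-box share ran from 8.33% (around ZT0) to 16.4% (around ZT8), with 15.9% around ZT16 and 14.3% around ZT4. The ROR element share was 6.12% around ZT4, 5.94% around ZT20 and 5.56% around ZT0, and 1.49% to 2.27% in the other windows. D-boxes were in 5 of 60 promoters (8.33%) around ZT12 and in at most 2.27% in the others. A heat shock element and a cAMP response element (CRE) were searched as well. The heat shock element was in 0.475% of the 9474 genes, 0 of the 393 and 1 of 14 heat shock genes with a promoter. The CRE was in 2.71% of the 9474 and 3.31% of the 393, with 9.09% around ZT16 and 0% to 4.08% in the other windows. These matches are descriptions of the letters in the window.

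A curve with a 24 h period was fitted to each gene. Its amplitude is the height of the peak above the mean on the log2 scale, so that an amplitude of 0.5 is a 2-fold change from trough to peak. Of 11787 genes tested with limma, 5471 (46.4%) were rhythmic at an adjusted p below 0.05. Most changes were small. The median amplitude of the rhythmic genes was 0.221, a peak to trough fold of 1.36, and 498 genes (4.22% of those tested) changed at least 2-fold, 77 at least 4-fold and 18 at least 8-fold.

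Peaks were spread over the whole day, with 2724 in the light and 2747 (50.2%) in the dark. The 4 h window around ZT20 held the most, 1114 genes, then the window around ZT8 with 1002, and the window around ZT12 the fewest, 782. These are 20.4%, 18.3% and 14.3% of the rhythmic genes, near the 18.9%, 17.2% and 15.1% of all tested genes whose fitted peaks lie there. Among genes that changed at least 2-fold the window around ZT20 stood out further, with 125 of 498 against 55 around ZT16. In females alone 56.0% of peaks fell in the dark and in males alone 44.4%, so the balance between light and dark was not settled by these arrays.

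**Figure D1:**
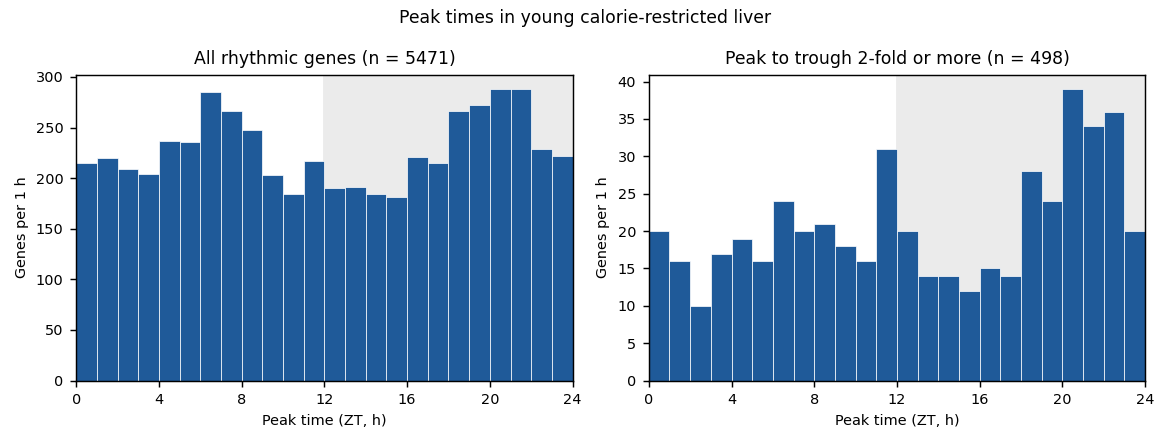
Histograms of fitted peak time (ZT in hours, bins of 1 h) for the 5471 rhythmic genes (left) and the 498 that changed at least 2-fold (right), with the dark phase in grey. Peaks occur in every hour, and the right panel is highest between ZT20 and ZT23.

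Clock genes cycled with large amplitudes, the activators high at night's end and the repressors spread from midday to late night. Of the 16 measured clock genes, 14 were rhythmic in the limma F test (46.4% of all genes), with Rora (amplitude 0.0608, adjusted p = 0.162) and Arntl2 (0.0747, adjusted p = 0.058) below the threshold. Nr1d1 and Dbp were not analysed here.

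The activators peaked late in the night. Arntl read 6.23, 5.99, 6.09, 6.33 and 6.08 at ZT0 and 4.37, 4.37, 4.21, 4.26 and 4.17 at ZT8. No array at ZT0, ZT16 or ZT20 read below 5.64, and no array at ZT4, ZT8 or ZT12 above 4.89. The fitted amplitude of Arntl was 1.07 ± 0.061 (SE), a 4.39-fold change, with a peak at ZT20.4 ± 0.209 h. Clock, the partner of BMAL1, had an amplitude of 0.909 and peaked at ZT21.3.

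Npas2, which can stand in for Clock, was nearly a switch. It read 5.82, 7.02, 7.25, 7.32 and 6.84 at ZT0 and 7.55, 6.52, 7.30, 6.87 and 6.18 at ZT20. At the other 4 times all 22 arrays lay between 3.24 and 3.85. These groups did not overlap, and the amplitude of 1.94 ± 0.209 with a peak at ZT21.7 describes the shape only in part, since the curve is smooth and the data are not.

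The repressors formed a sequence through the day. Nr1d2 (REV-ERB beta), a repressor of Arntl, came first. It read 8.60, 8.72, 8.73, 8.55 and 8.36 at ZT8 and between 4.16 and 5.73 at ZT20, and stayed between 8.06 and 8.73 from ZT4 to ZT12. Its amplitude was 2.15 ± 0.137, a 19.6-fold change, with a peak at ZT8.08. Per3 followed with an amplitude of 1.70 at ZT9.87, Ciart with 1.28 at ZT11.1, Per1 with 0.981 at ZT11.6 and Per2 with 2.02 at ZT13.1. Per2 read 8.26 to 8.84 at ZT12 and 3.32 to 4.60 at ZT0.

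Cry1, the last repressor of the loop, peaked at ZT18.1 ± 0.184 h with an amplitude of 1.62, a 9.47-fold change. Its readings at ZT20 were 7.79, 7.46, 7.62, 7.33 and 7.69, and at ZT4 they lay between 4.24 and 4.85 with a median of 4.52. Cry2 and Bhlhe40 had lower amplitudes of 0.356 and 0.409. Of the D-box factors, Tef (amplitude 1.28, ZT9.91) and Hlf (0.391, ZT11.4) peaked near dusk, and their opponent Nfil3 peaked at ZT19.9 with an amplitude of 1.25.

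**Figure D2:**
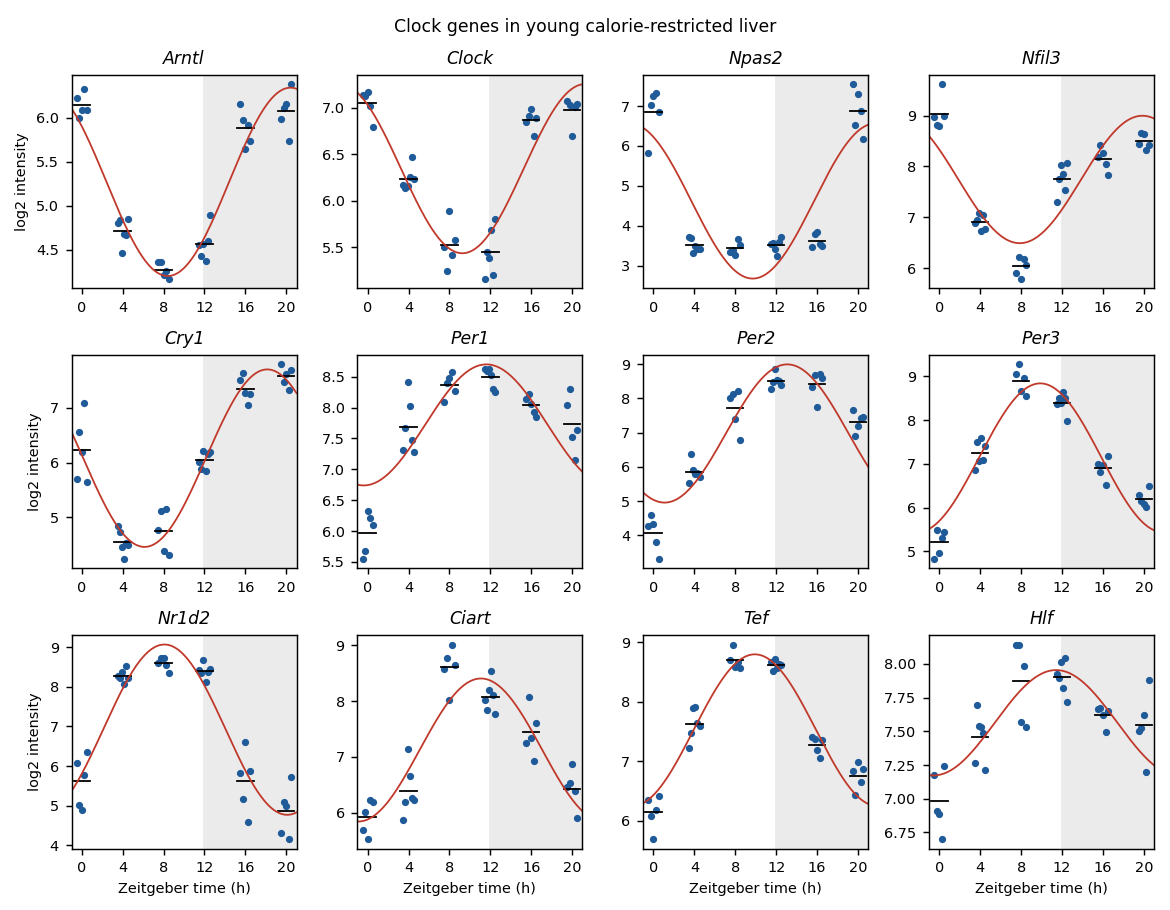
Log2 intensity of 12 clock genes against zeitgeber time in the 32 arrays (points, spread sideways for display), with the mean at each time (bar) and the fitted 24 h curve (line), and the dark phase in grey. Arntl, Clock and Npas2 are high from ZT20 to ZT0, and Nr1d2, Per3 and Tef are high at ZT8.

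The largest amplitude of any gene was read by the probe set of Sphk2, a sphingosine kinase, with 2.55 ± 0.121 (34.1-fold) at ZT8.13. Sphk2 (chr7:45709463-45718002) overlaps the clock gene Dbp (chr7:45705100-45710203) by 741 bases, and whether Dbp has a part in this signal was not tested. Per3 overlaps Uts2 (by 4714 bases), Upp2 overlaps Acvr1 (by 512) and Lpin1 overlaps Ntsr2 (by 461). The overlaps of Upp2 and Lpin1 lie at the start of each gene. Whether the probe sets of these genes read the shared bases was not tested.

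Genes known as outputs of the liver clock cycled as well, with 16 of 19 measured rhythmic (46.4% of all genes) and 13 changing at least 2-fold (4.22% of all genes). Wee1, a kinase that holds back mitosis, had an amplitude of 2.02 with a peak at ZT11.4. Its readings lay between 7.37 and 8.15 at ZT12 and between 3.24 and 4.29 at ZT0. Usp2, a ubiquitin protease of clock proteins that is not among these 19, had an amplitude of 2.02 at ZT12.7. Cdkn1a (p21), an inhibitor of cyclin-dependent kinases that is among them, had 2.04 at ZT18.1. Upp2, a uridine phosphorylase, peaked at ZT9.38 with an amplitude of 1.41.

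Among the genes of largest amplitude in each window were several outside the clock. Around ZT0 and ZT20 these were Cldn1 (a tight junction protein, amplitude 1.91, ZT22.9), Slc30a10 (a manganese exporter, 1.98, ZT21.8) and Slc45a3 (1.64, ZT19.8). Around ZT4 they were Arrdc3 (an arrestin-domain protein, 1.57, ZT3.05) and Fbxo21 (1.25, ZT5.48). Around ZT12 Coq10b, a coenzyme Q binding protein, had 1.53 at ZT11.4. Around ZT16 the leading gene was the heat shock gene Hspa1b.

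Protein folding genes peaked mostly at night. Their lists were chosen with earlier results of these data known, so the counts are descriptions. Of 17 measured heat shock genes 15 were rhythmic, against 46.4% of all genes, and 9 changed at least 2-fold, against 4.22%. Of the 15, 14 peaked in the dark, against 50.2% of all rhythmic genes. The median amplitude over the 17 was 0.530, against 0.117 over all genes tested. The inducible HSP70 gene Hspa1b had the largest amplitude of the list, 1.78, and peaked at ZT14.4 ± 0.479 h. The cochaperone genes Dnajb4 (ZT13.1), Dnajb1 (ZT13.6) and Bag3 (ZT14.1) and the HSP70 gene Hspa8 (ZT14.2) peaked at about the same time. Hspa1b read 4.11, 5.64, 5.54, 5.19 and 4.10 at ZT0 and 7.33, 8.65, 8.16, 9.39 and 8.18 at ZT16. At ZT12 its readings ran from 7.87 to 9.80, above every array of ZT0, ZT4 and ZT8.

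Some chaperones peaked later. Hsp90aa1, the inducible HSP90, peaked at ZT18.2 with an amplitude of 1.20, and Hspb1, the small heat shock protein HSP27, at ZT19.0 with 1.29. A second probe set of Hspb1 gave 1.07 at ZT19.1. Cirbp, a cold-inducible RNA-binding protein also on this list, ran opposite to the chaperones and peaked at ZT6.15 with an amplitude of 0.914. Its readings lay between 6.15 and 6.75 at ZT8 and between 4.11 and 4.68 at ZT20.

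Genes of protein folding in the endoplasmic reticulum came next. Of 24 measured, 20 were rhythmic (46.4% of all genes), and 12 of these peaked within 2 h of ZT20. Hyou1, an ER chaperone of the HSP70 family, read 10.04, 9.79, 9.69, 9.97 and 9.42 at ZT20 and 8.04 to 8.56 at ZT12. It peaked at ZT19.6 with an amplitude of 0.787. Sdf2l1 had an amplitude of 1.11 at ZT21.7, Creld2 0.713 at ZT18.1 and the calcium-binding chaperone Calr 0.666 at ZT22.9. In males alone 13 of these genes were rhythmic.

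The proteasome, which degrades proteins, peaked around dawn. Of 33 subunit genes 27 were rhythmic (46.4% of all genes) and their median peak was ZT0.985, with low amplitudes (median over all 33 of 0.171). Psmb3 had 0.486 at ZT1.63 and Psmd14 0.433 at ZT22.1. In females alone and in males alone 11 were rhythmic, 13 without ZT12, and 17 and 16 without replicate numbers 2 and 3.

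Of 71 oxidative phosphorylation genes 26 (36.6%) were rhythmic (46.4% of all genes), and 19 of the 26 peaked from ZT2 to ZT6. The count of 26 was unsteady. Female arrays gave 5 and male arrays 8, and the count was 11 to 15 without replicate number 1, 2, 3 or 5, 15 with a replicate block, 11 to 14 without ZT8, ZT12 or ZT16, and 39 without ZT0 or in the fit on ranks. Of 25 ribosome biogenesis genes 17 were rhythmic, with a median peak at ZT13.0, 11 in the dark and 6 in the light. In females alone 6 were rhythmic, 9 without ZT16 and 10 without replicate number 1. Among them Polr1a, the largest subunit of RNA polymerase I, had 0.397 at ZT13.0. Of 54 cytosolic ribosomal protein genes 15 (27.8%) were rhythmic, a count that ran from 2 in females alone to 34 without ZT0.

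Genes that respond to glucocorticoids peaked from dusk into the night. Of 17 measured 12 were rhythmic (46.4% of all genes), 7 of these with a peak from ZT14 to ZT18. Zbtb16, a transcription factor, had an amplitude of 0.887 at ZT15.3, Mt1, a metallothionein, 0.863 at ZT11.4, and Tat, tyrosine aminotransferase, 0.445 at ZT14.6. In each sex alone 6 of the 17 were rhythmic.

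**Figure D3:**
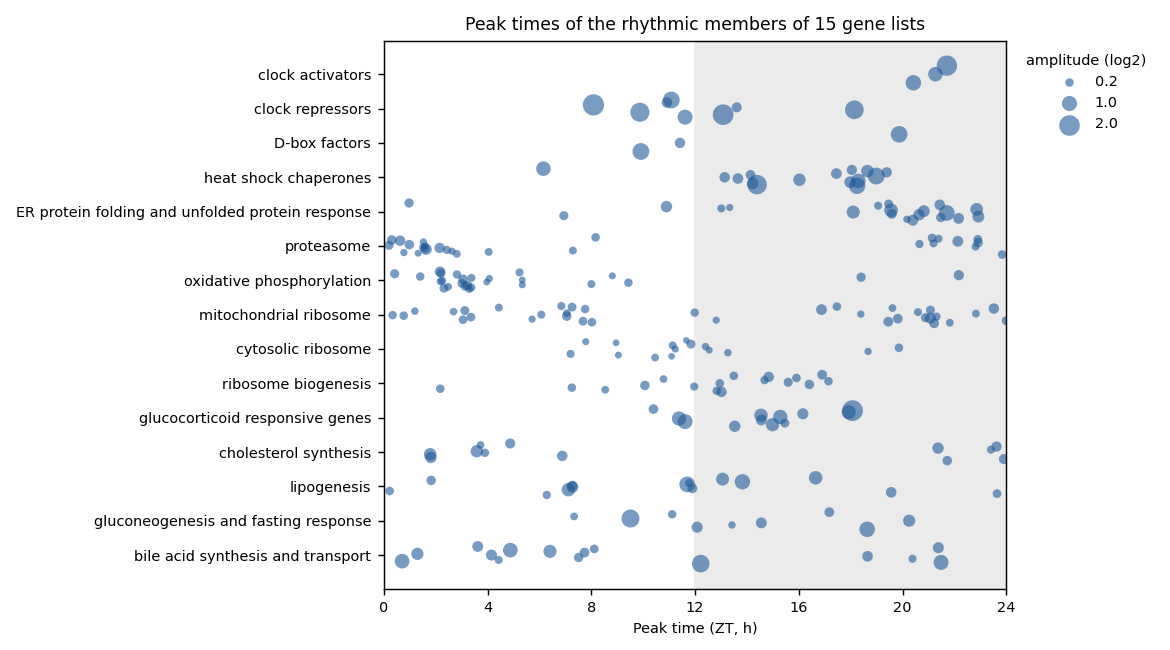
Peak times (ZT in hours) of the rhythmic members of 15 gene lists, 1 point per gene, with point area growing with amplitude and the dark phase in grey. Heat shock genes other than Cirbp lie between ZT13 and ZT20, ER folding genes around ZT20 and proteasome genes around ZT0.

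In glucose metabolism, G6pc, the catalytic subunit of glucose-6-phosphatase, showed a daytime trough. It read between 11.82 and 12.54 at ZT0, ZT12, ZT16 and ZT20, between 10.16 and 11.34 at ZT4, and between 8.95 and 10.48 at ZT8. The fitted amplitude was 1.07 at ZT18.6. Of the other gluconeogenesis genes, Pck1 (amplitude 0.245, limma adjusted p = 0.14) and Fbp1 (0.0137, 0.863) were not called rhythmic. Ppp1r3g and Ppp1r3c, which bring protein phosphatase 1 to glycogen, peaked at ZT9.51 (amplitude 1.48) and ZT22.1 (1.28). Gys2, liver glycogen synthase, had 0.766 at ZT10.2. Of 13 genes of gluconeogenesis and fasting 9 were rhythmic (46.4% of all genes). The count fell to 4 in females alone and without replicate number 2 or 5. It was 5 in males alone and without number 1 or ZT8.

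In bile acid metabolism 15 of 23 genes were rhythmic (46.4% of all genes). Cyp7a1, the rate-limiting enzyme of bile acid synthesis, had an amplitude of 1.42 at ZT12.2, a 7.20-fold change. It read 4.34 to 6.65 at ZT0, below all arrays from ZT4 to ZT20 but 1, an array at ZT16 that read 6.00. Cyp8b1, which sets the cholic acid share, peaked at ZT21.5 (0.987) and Hsd3b7 at ZT0.706 (0.936). The sterol exporter genes Abcg5 and Abcg8 had 0.711 and 0.929. These neighbours overlap by 6710 bases on opposite strands.

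In lipid metabolism 12 of 17 cholesterol synthesis genes were rhythmic (46.4% of all genes). Cyp51 had 0.651 at ZT1.79, Sc5d 0.501 at ZT21.4 and Idi1 0.495 at ZT1.82. The count of 12 was 6 in females alone, 4 in males alone and 7 without replicate number 3. Of 23 lipogenic genes 14 were rhythmic (9 in each sex alone), led by Lpin1, a phosphatidate phosphatase (1.11, ZT11.7), and Thrsp (1.03, ZT13.8). Fasn, fatty acid synthase, was not called (amplitude 0.131, adjusted p = 0.65). Of the NAD genes, Nmrk1, a nicotinamide riboside kinase, had 1.15 at ZT13.3 and Kynu, kynureninase, 0.976 at ZT20.4.

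Genes of detoxification, amino acid breakdown and signalling cycled in part, and their counts stand beside 46.4% of all genes. Of 29 xenobiotic genes 16 were rhythmic, led by Alas1, the rate-limiting enzyme of haem synthesis (amplitude 1.09, ZT12.4), and the monooxygenase Fmo5 (a 4.06-fold change, ZT14.1). That count of 16 (55.2%) was 8 in females alone and 9 without replicate number 3 or without ZT4. Of 22 urea cycle and amino acid genes 17 were rhythmic, with the mitochondrial ornithine carrier Slc25a15 at ZT18.8 (0.581) and Agxt at ZT3.48 (a 1.98-fold change). Of 24 genes of growth factor and insulin signalling 19 were rhythmic, with no common peak. Socs2, an inhibitor of growth hormone signalling, had 0.705 at ZT4.60, and Stat5b 0.533 at ZT0.0879. Of 22 autophagy genes 11 were rhythmic, with Gabarapl1 at ZT5.22 (0.370) and Bnip3 at ZT9.70 (0.358), and 4 and 5 in females and males alone. With the sexes apart the urea cycle and amino acid count was 10 (females) and the signalling count 11 (females) and 8 (males).

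Of 21 PPAR-alpha targets and fatty acid oxidation genes 10 (47.6%) were rhythmic, close to the 46.4% of all genes. Acot3 had 0.847 at ZT9.67. The count was 5 in females alone and 6 without replicate number 1. Acetyl-CoA and acetylation genes were rhythmic in 10 of 13, with Kat2b, an acetyltransferase, at ZT5.65 (0.481), and in 5 in females alone. NAD and sirtuin genes were rhythmic in 11 of 18, and glycolysis and glycogen genes in 8 of 14. Mitochondrial ribosome genes were rhythmic in 35 of 70, with 11 peaks around ZT20 and 8 around ZT8, and in 18 and 16 in females and males alone. Genes that modify clock proteins were rhythmic in 6 of 9 (3 in males alone), and RNA-binding and splicing genes in 4 of 6 (1 in each sex alone, and 2 with a replicate block or without replicate number 2, number 4 or ZT16).

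The next counts also stand beside 46.4% of all genes. Of 14 immediate early genes 9 were rhythmic, with Fos at ZT16.5 (1.10) and Jun at ZT11.8 (0.675), and 4 in males alone. Of 19 cell cycle genes 14 were rhythmic, and Plk3 had 0.902 at ZT10.2; 8 were rhythmic in males alone and 9 with the dimmer genes left out up to the median. Acute phase and interferon genes were rhythmic in 16 of 25, 12 of them peaking in the dark, with Saa1 at ZT18.7 (0.964) and Lcn2 at ZT17.9 (0.837). In males alone 2 of the 25 were rhythmic and in females alone 10. Coagulation and complement genes were rhythmic in 8 of 22 (36.4%), in 3 and 4 in females and males alone and in 13 in the fit on ranks. Of 18 genes known to differ between the sexes in liver 6 (33.3%) were rhythmic, led by the fatty acid elongase Elovl3 (1.35, ZT20.1). Sex-linked transcripts did not separate the labelled sexes in these values.

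A component with a 12 h period was called in 2631 genes (22.3%), and in 1445 of these its amplitude exceeded that of the 24 h component. Pdk4, which shuts down glucose oxidation in fasting, had the largest 12 h amplitude, 1.24 ± 0.184, and no called 24 h rhythm (adjusted p = 0.314). It read 7.51, 6.40, 5.99, 5.94 and 6.04 at ZT0, and at ZT12 its 6 arrays ran from 4.79 to 7.79. All arrays at ZT4 and ZT8 read 4.67 or less, so Pdk4 was high at ZT0, lower in the light and high in some arrays at ZT12.

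G0s2, an inhibitor of lipolysis, had a 12 h amplitude of 0.825, and read 10.33 to 10.83 at ZT0 and 7.92 to 8.60 at ZT4. Npas2 had 1.07, which describes its narrow peak. Sampling every 4 h gives a 12 h component 3 points in a cycle. The count of genes with one fell to 1062 when replicate number 5 was left out at all times.

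**Figure D4:**
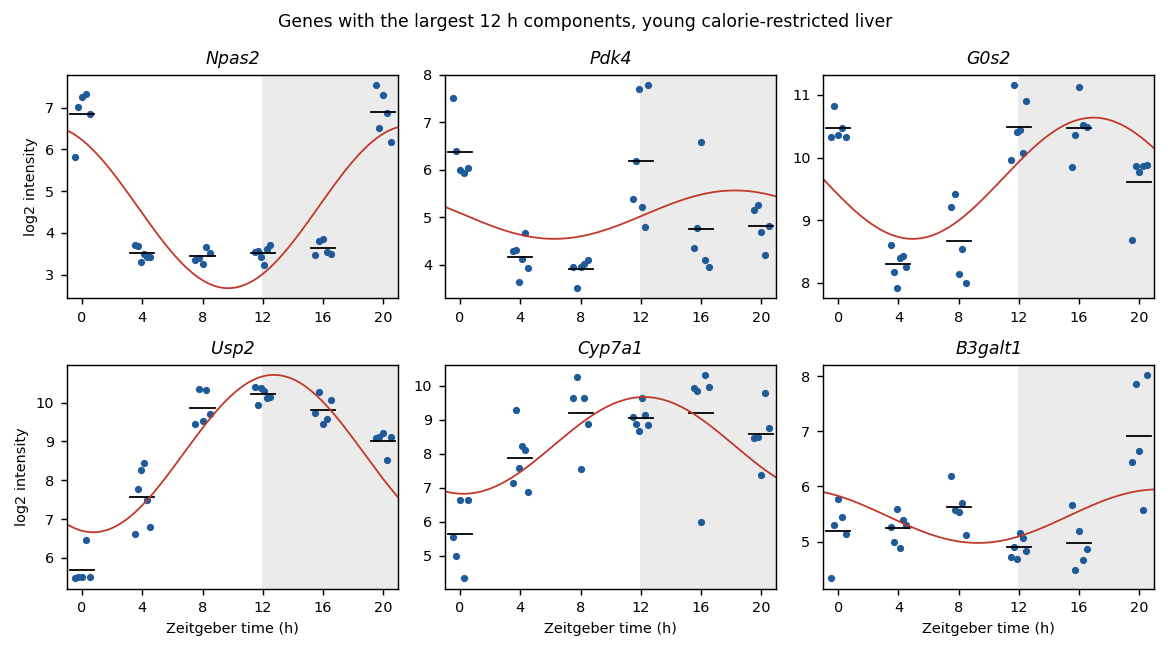
Log2 intensity against zeitgeber time for the 6 genes with the largest 12 h components (points are arrays, bars means at each time, lines the 24 h curve alone, grey the dark phase). The Pdk4 means at ZT0 and ZT12 lie above the 24 h curve and those at ZT4 and ZT8 below it.

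Against young mice on the normal diet, the fit of all arrays of the series called a different rhythm in 1163 genes (9.87%). In 951 of these (81.8%) the amplitude was larger under restriction, against 57.0% of all genes tested. In that fit 49.3% of genes were rhythmic in young restricted mice, 31.4% in young mice on the normal diet and 43.3% in old restricted mice, and amplitudes and peaks of the groups compared below are its values. Of the 1163, 608 were called rhythmic in the restricted mice alone, 88 in the normal-diet mice alone and 454 in both.

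Most clock genes had larger fitted amplitudes and slightly earlier fitted peaks under restriction. Of 13 clock genes rhythmic in all 3 groups, 12 had a larger amplitude and 12 an earlier peak under restriction, with a median shift of -0.78 h. The amplitude was larger under restriction in 57.0% of all genes tested. Over the 2454 genes rhythmic in both young groups the median shift was -0.98 h and 68.7% peaked earlier, and 2 of the 13 clock shifts exceeded 2 SE. The difference itself passed for 4 of the 16 clock genes (limma, adjusted over all genes), against 9.87% of all genes. Nr1d2 had 2.16 ± 0.138 against 1.35 ± 0.156 (adjusted p = 0.00627), Arntl 1.06 against 0.688 (0.00236), Cry1 1.62 against 1.03 (0.00237) and Per2 2.03 against 1.24 (0.0252). That of Per2 was lost without replicate number 4 (adjusted p = 0.0528) or 5 (0.0627), and without ZT0 or ZT16. Those of Arntl (0.0822), Cry1 (0.0891) and Nr1d2 (0.0702) were lost without ZT4, that of Nr1d2 also without ZT16 (0.0791), and those of Cry1 (0.171) and Per2 (0.0736) in the fit on ranks. In females alone Nr1d2 and Per2 were not called, and in males alone Arntl, Cry1 and Per2 were not. For Npas2 (1.92 against 1.58, adjusted p = 0.428) and Per3 (1.68 against 1.43, 0.333) no difference was called.

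Protein folding genes were called different more often than the 9.87% of all genes, with 15 of 17 heat shock genes and 16 of 24 ER genes. The lists were chosen with earlier results of these data known, so these counts are descriptions. The 15 include Cirbp, which ran opposite to the chaperones. They also include Hspe1, which was not rhythmic in the fit of the restricted arrays alone (amplitude 0.0694) and had 0.161 on the normal diet. For Hspa1b the amplitude was 1.78 under restriction and 0.546 on the normal diet (limma adjusted p = 0.0016). At ZT0 Hspa1b averaged 4.92 ± 0.76 (SD, n = 5) in restricted mice and 7.13 ± 0.87 (n = 4) on the normal diet, and at ZT12 8.73 ± 0.79 (n = 6) and 8.67 ± 0.56 (n = 4). The means lay within the spread of each other at ZT12 and apart at ZT0. Hsp90aa1 had 1.20 at ZT18.2 against 0.478 at ZT21.9.

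The ER genes called different peaked earlier under restriction in 16 of 16 cases, with a median shift of -4.82 h, and had a larger amplitude there in 9. Among all 1163 genes called, 81.8% had the larger amplitude. Over the 2454 genes rhythmic in both groups, called or not, 68.7% peaked earlier. The share of earlier peaks among all genes called was not counted, so the 16 of 16 has no like share beside it. Hyou1 had 0.804 at ZT19.5 under restriction and 0.764 at ZT1.02 on the normal diet (limma adjusted p = 3.07e-06). At ZT16 Hyou1 averaged 9.74 ± 0.51 (n = 5) against 8.51 ± 0.28 (n = 4). Sdf2l1 peaked at ZT21.6 against ZT1.29, Creld2 at ZT18.1 against ZT0.636 and Calr at ZT22.8 against ZT1.47. In females alone 8 heat shock and 6 ER genes were called different, in males alone 4 and 3, and without ZT16 10 ER genes.

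Tubb2a and G6pc fell further by day under restriction. Tubb2a, a beta tubulin, averaged 8.74 ± 0.27 (n = 5) at ZT8 against 10.44 ± 0.64 (n = 4), and 11.10 ± 0.28 against 11.13 ± 0.26 at ZT0. Its amplitudes were 1.40 and 0.408. G6pc averaged 9.89 ± 0.63 (n = 5) at ZT8 against 11.99 ± 0.42 (n = 4), with amplitudes of 1.07 and 0.0698 (limma adjusted p = 0.000969). Cyp26b1, which degrades retinoic acid, peaked at ZT17.1 under restriction and at ZT22.4 on the normal diet. Slc41a2, a magnesium transporter, had 1.41 against 0.333, and Camk1d 1.10 against 0.609. Arrdc3, also called different, averaged 9.35 at ZT4 and 6.85 at ZT16 under restriction. Its normal-diet values are not given here, so these means do not show how the groups differ. The differences of Arrdc3 and Hspa1b were not called in females alone or in males alone. That of G6pc was not called in males alone or in the fit on ranks. Those of Slc41a2 and Camk1d were not called in females alone.

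**Figure D5:**
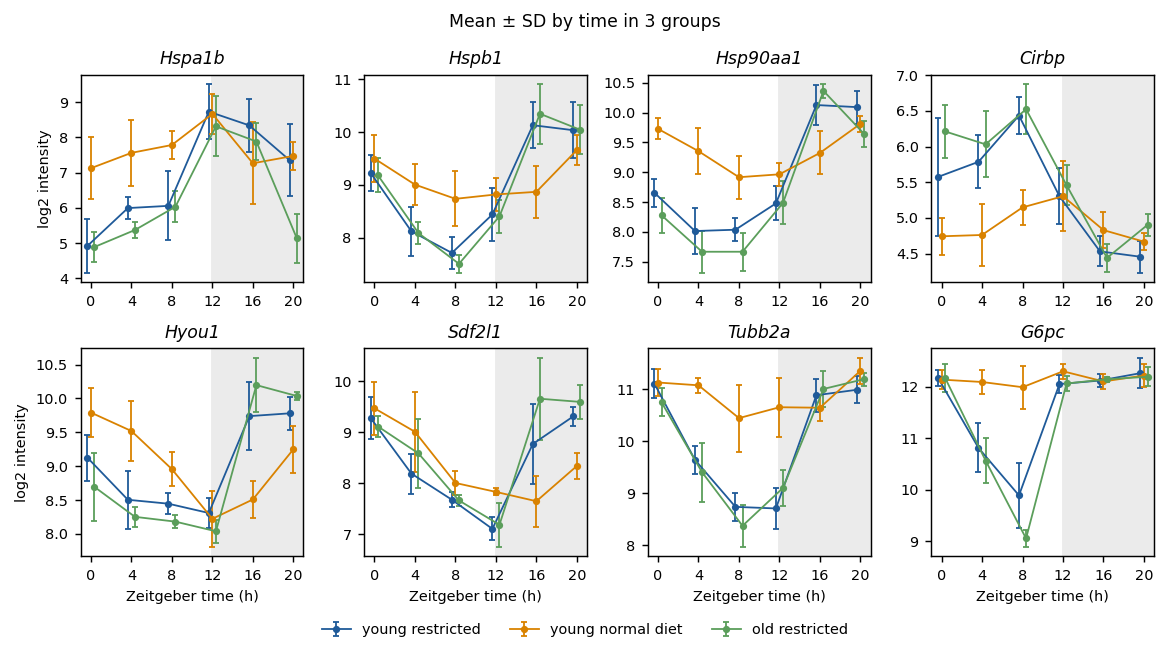
Mean log2 intensity ± SD against zeitgeber time for 8 genes in young restricted (5 or 6 arrays per time), young normal diet (4 or 5) and old restricted mice (3 to 5), offset sideways for display, with the dark phase in grey. G6pc and Tubb2a fall at ZT8 in both restricted groups, and Hyou1 is high at ZT16 in them.

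Against old mice on the restricted diet no gene was called different by limma (0 of 11787, or 0%), and 544 (4.62%) had an unadjusted p under 0.05. Of the genes rhythmic in young restricted mice 71.2% were rhythmic in old restricted mice, and 81.1% the other way. For these 4135 genes the median difference in peak time was 0.31 h, and 88.0% lay within 2 h. Arntl had 1.06 at ZT20.4 in the young and 0.944 at ZT20.6 in the old, and Hspa1b 1.78 at ZT14.4 and 1.83 at ZT13.1. A test that calls nothing does not show that the rhythms are alike.

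Markers of the cell types in the tissue were read beside these results. Hepatocyte markers averaged between 11.13 and 11.66 in every array, and 4 of 8 were called rhythmic (1 in females alone, 2 in males alone), with amplitudes of 0.172 (Hnf4a) or less. Counts for several of the other cell types moved when a single array was left out, and all marker counts stand beside 46.4% of all genes. With all arrays of the series in the fit, 2 Kupffer cell and macrophage, 2 T and NK cell and 0 neutrophil markers were rhythmic. Of 11 Kupffer cell and macrophage markers 4 were rhythmic, led by Cd163 (0.605, ZT15.6), but 9 without replicate 3 at ZT20, 0 in females alone and 8 in males alone. Of 10 endothelial markers 7 were rhythmic, but 2 without replicate 5 at ZT0, 3 without replicate 1 at ZT16, 4 without any of 5 other single arrays, and 1 in females alone. Of 9 T and NK cell markers 5 were rhythmic (0 in males alone), with Nkg7 and Cd3e peaking at ZT18.6 and ZT18.2. The 3 neutrophil markers tested, Ltf, S100a9 and Camp, peaked between ZT15.0 and ZT16.0, and none was called without ZT16 or in males alone. Of 8 stellate cell markers 2 were rhythmic (4 without replicate 2 at ZT20), of 5 cholangiocyte markers 1, of 3 B and plasma cell markers 1 (2 without replicate 4 at ZT12) and of 2 erythroid markers 0. In whole liver fewer cells of a type and less RNA per cell cannot be told apart, and the part of these cells in the rhythms above was not tested.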

How the data were processed

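Liver RNA was measured on Affymetrix arrays. The authors deposited log2 intensities of 21261 probe sets made with RMA, per the submitters' processing notes (version not stated). Each gene took its probe set of highest mean (15716 genes), and the 3929 dimmest (log2 mean below 4.13) were left out, leaving 11787. Cosine and sine terms of 24 h and a term for labelled sex were fitted, using limma 3.58.1 (R 4.3.3; eBayes with trend, moderated F test, Benjamini-Hochberg over all genes, threshold 0.05) to the 32 young restricted arrays. Differences between groups used all arrays, and the 12 h test added terms of that period. Errors are SE unless called SD. The fits were tested on simulated data. Genes named are all clock genes, the 5 of largest amplitude per 4 h window, the 6 of largest 12 h amplitude, the 8 of largest difference and 4 per list of 40 lists; other list members are examples chosen after their values were seen. Members and lists were chosen with earlier results of these data known. The transcripts Xist, Kdm5d and Eif2s3y did not separate the labelled sexes (Eif2s3y averaged 9.27, SD 0.293, in 18 females and 9.16, SD 0.354, in 14 males). In the young normal-diet group 4 of 25 arrays had outlying readings of Xist or Eif2s3y. Alternatives tried were other filters, scalings, sexes apart, leaving out arrays, replicate numbers or times, a rank fit and a replicate block.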

Additional observations from a re-analysis of the deposited data

Results flagged for a closer look

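The rhythm of 1163 genes differed between young restricted and young normal-diet mice in the test of the difference itself. The 8 of largest difference, with their limma adjusted p, were Cyp26b1 (9.08e-07), Tubb2a (9.53e-07), Hyou1 (3.07e-06), Camk1d (0.000117), Hspa1b (0.0016), Slc41a2 (0.00202), Arrdc3 (0.00246) and Slc30a10 (0.00255).

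Single arrays stood apart from the others of their time in 4 of 96 sets of clock gene readings, where chance gives about 4.8. Nfil3 read 9.62 in replicate 4 at ZT0, against 8.99 in the next array. Clock read 6.48 in replicate 5 at ZT4 (next 6.26) and 6.70 in replicate 3 at ZT20 (next 7.01). Hlf read 7.50 in replicate 4 at ZT16 (next 7.62).

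Probe sets with no single gene symbol entered no comparison. Of 3518 above the limit for dim signals, 1547 (44.0%) had a 24 h rhythm, and 140 of these changed at least 2-fold. The largest amplitude was 2.62 at ZT8.25.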

How the results depend on the processing

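Rhythmic genes (5471) numbered 2896 with female arrays only and 2748 with male arrays only, each a smaller set, and 2241 with an amplitude of at least 0.25 as well. The matching counts of dark-phase peaks (2747) were 1621, 1221 and 1196. The 12 h component (2631) was called in 419 genes in females and 118 in males, and in 1062 to 2418 without 1 replicate number. The difference from the normal diet (1163) was called in 205 and 102 genes in females and males, in 758 without ZT16 and in 511 at an adjusted p below 0.01. It was called in 969 genes without the 4 young normal-diet arrays with outlying sex-linked transcripts. The difference from old restricted mice gave 1 gene without ZT0 and 1 without ZT20. Leaving out 1 array gave 5201 to 5657 rhythmic genes and 1041 to 1258 differences, and the 12 h component 2194 to 2852. The young restricted array labelled 88 weeks was kept in the main fits. Without it there were 5233 rhythmic genes, 2413 12 h components and 1041 differences, the lowest difference count for any 1 array. Leaving out 1 replicate number gave 4391 to 5194 rhythmic genes and 882 to 1154 differences. The 12 h test was not run with a time left out.

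Replicate numbers were not shown to pair arrays: same-numbered arrays at different times had a median correlation of residuals of -0.036, and 1 of 32 arrays correlated best with its own number. With a replicate block the counts were 4887 rhythmic genes, 2265 12 h components, 1090 differences from the normal diet and 0 from old restricted mice. Signal over background could not be measured from these values.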
